A study of Mus musculus with 8 samples.

Results

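The mouse *Slc25* genes, which encode the carriers of the mitochondrial inner membrane, were followed in pro-B cells with and without the miR-15 family. Members were all rows of the deposited count table whose symbol is Slc25a followed by a digit, and this gave 47 of the 24746 genes. Of these, 40 had enough counts to be tested, among 12714 tested genes in all, and 7 did not pass the filter on low counts. Pro-B cells are B cell progenitors in which the heavy chain locus is being rearranged, and they were sorted by FACS from marrow of 4 double knockout animals (genotype miR-15a/b fl/fl Vav-Cre, hereafter DKO) and 4 control animals (genotype miR-15a/b +/+ Vav-Cre). The labels give a C57BL/6 strain background and an age of 10 to 12 weeks for all mice, both genotypes carried Vav-Cre, and each mouse gave 1 RNA library. The floxed alleles were made in ES cells of mixed C57BL/6 x 129/Sv origin, and chimeras were crossed to C57BL/6NRj mice. Vav-Cre removes both floxed clusters, miR-15a/16-1 together with miR-15b/16-2, throughout the hematopoietic system, so the pro-B cells of DKO mice developed among other blood cells that lack the same miRNAs.

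Slc25 carriers are made in the cytosol, imported by the Tom and Tim22 machinery and inserted into the inner membrane. There they exchange ADP for ATP and move phosphate, dicarboxylates, citrate, amino acids, cofactors and iron between cytosol and matrix. A dividing B cell progenitor draws on this traffic for oxidative phosphorylation and for the precursors of nucleotides, lipids and heme. miRNAs bind to 3' UTRs through a short 5' stretch, the seed, and lower the level or the translation of the bound mRNA.

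The miRNAs that DKO cells lack are shown first, because they share the seed against which the carriers' 3' UTRs were searched. Sequences are from RefSeq (GRCm38.p6), run 5' to 3', and have the seed, bases 2 to 8, in capitals.
miR-15a-5p (chr14:61632075-61632096, minus strand): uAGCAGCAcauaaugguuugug
miR-15b-5p (chr3:69009775-69009796, plus strand): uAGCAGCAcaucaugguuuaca
miR-16-5p (made from both clusters): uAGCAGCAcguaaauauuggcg

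The letters that pair with this seed were searched in each gene's 3' UTR (the longest in GENCODE M21), on the strand of the transcript: TGCTGCTA (8mer), TGCTGCT (7mer-m8) and GCTGCTA (7mer-A1), where the 8mer contains both of the others and a gene was counted under its longest match. Of the 39 tested *Slc25* genes with an annotated 3' UTR, an 8mer was found in 1 (2.56%), a 7mer-m8 without an 8mer in 10 (25.6%) and only a 7mer-A1 in 2 (5.13%), while 26 (66.7%) held none. Among all 11810 tested genes with a 3' UTR the shares were 4.47%, 20.1%, 3.33% and 72.1% in the same order. The carriers called below that have a match are *Slc25a37*, with an 8mer 46 bases before the end of its 3' UTR and a 7mer-m8 further upstream, and *Slc25a10*, with a 7mer-A1. Their matches are printed with the flanking bases and with the matching letters in capitals, since these members differed between the genotypes in opposite directions.
*Slc25a37* 8mer (chr14:69241894-69241901, minus strand): gtggatgtctgtcgTGCTGCTAca
*Slc25a37* 7mer-m8 (chr14:69243279-69243285, minus strand): cccacggatggtcaTGCTGCTgc
*Slc25a10* 7mer-A1 (chr11:120498469-120498475, plus strand): tccccacctccctgGCTGCTAcc

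*Slc25a37*, the only member with an 8mer, was lower in DKO cells, with a log2 fold change of -0.61, against a median of 0.05 for all tested genes with an 8mer. The median log2 fold change was 0.15 over the 10 members with a 7mer-m8 and -0.08 over the 26 without a match, against 0.00 and -0.02 for all tested genes of the same classes. With each gene's shortest annotated 3' UTR it was 0.09 over 7 members with a 7mer-m8 and -0.07 over 29 without a match. The medians for all tested genes were then 0.02 and -0.02. The matches are letters in the annotation and were not tested as binding sites.

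Libraries held 38073065 to 43288133 counts in DKO mice and 38257907 to 41530921 in control mice. Reads over *Mir16-1*, of the miR-15a/16-1 cluster, went with the labels: they numbered 0 in all DKO libraries and 5, 1, 2 and 4 in the control libraries. These are few reads, and the miR-15b/16-2 cluster was not checked. The summed level of 11 pro-B cell markers, among them *Ebf1*, *Pax5* and *Vpreb1*, lay between 32294 and 36002 CPM (counts scaled to the TMM-normalized library size) in DKO cells and between 30585 and 34682 CPM in control cells. Of these 11, 5 had a positive and 6 a negative log2 fold change, and 3 an unadjusted p under 0.05 in edgeR. Over all 12714 tested genes, 2566 had an unadjusted p under 0.05 in edgeR, which is the background for such counts here. *Kit* was called higher by edgeR at 41.5 ± 8.95 CPM in DKO and 17.9 ± 4.68 CPM in control cells (SD, n = 4 each; log2 fold change 1.21, adjusted p 0.0081). *Rag1* and *Rag2* had log2 fold changes of -0.42 and -0.33 and were not called (adjusted p 0.158 and 0.124 by edgeR). Markers of other marrow cells were present in both groups: summed neutrophil markers were 326, 645, 2368 and 1933 CPM in DKO mice 1 to 4, against 2831, 452, 569 and 3033 CPM in control mice 1 to 4. Summed monocyte and macrophage markers lay between 295 and 762 CPM in DKO cells and between 420 and 1032 CPM in control cells, and all 10 had a negative log2 fold change (median -0.97), with 0 called by edgeR's quasi-likelihood test (4 at an unadjusted p under 0.05) or DESeq2 and 1 called lower by edgeR's likelihood ratio test. T and NK cell markers summed to 22.6 to 66.3 CPM in DKO and 14.5 to 77.7 CPM in control cells, those of later B cells to 13.1 to 26.1 CPM in DKO and 21.5 to 38.8 CPM in control cells, and those of stroma and endothelium to 51.5 to 62 CPM in DKO and 42 to 66.3 CPM in control cells. Of the 4 tested T and NK cell markers, 3 had a positive log2 fold change. The other, *Cd3d*, was at 0.237 ± 0.0750 CPM in DKO and 0.827 ± 0.292 CPM in control cells (SD, n = 4 each), without overlap. Its log2 fold change was -1.79 with an adjusted p of 0.0589 by edgeR's quasi-likelihood test. It was called lower by the likelihood ratio test and by DESeq2. Of the 5 later B cell markers, 4 had a negative log2 fold change (median -1.14), 3 an unadjusted p under 0.05, and *Fcer2a*, the low-affinity IgE receptor of mature B cells, was called lower by edgeR at 0.275 ± 0.0890 CPM in DKO and 2.20 ± 1.31 CPM in control cells (SD, n = 4 each; log2 fold change -2.99, adjusted p 0.0144). The stromal sum was mostly *Pecam1*, at 53.9 ± 4.68 CPM in DKO and 44.7 ± 9.44 CPM in control cells, while the stromal chemokine gene *Cxcl12* was called lower by edgeR at 1.56 ± 0.573 CPM in DKO and 4.30 ± 1.31 CPM in control cells (SD, n = 4 each; log2 fold change -1.47, adjusted p 0.0322). *Kdr* was at 1.52 CPM in DKO and 1.80 CPM in control cells, and *Cdh5*, *Lepr*, *Col1a1* and *Col1a2* did not pass the filter. The sum alone therefore does not show stromal or endothelial cells. The part of these cells in the differences below was not tested except where a value is given. *Xist* was at most 0.14 CPM in DKO mice 3 and 4 and control mouse 1, and between 71.1 and 97.1 CPM in the other 5 libraries. In such bulk samples, fewer cells of a type and less RNA per cell cannot be told apart.

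Most *Slc25* genes differed little between the genotypes. By the quasi-likelihood test of edgeR, with p-values adjusted over all tested genes after Benjamini and Hochberg, 1 of 40 was called higher in DKO cells, where 2.65% of all tested genes were called higher, and 2 of 40 were called lower, where 1.93% of all tested genes were. The 3 called members were *Slc25a10* (higher), *Slc25a37* and *Slc25a33* (both lower), and 37 were not called. At an unadjusted p under 0.05 in this test there were 6 of 40, against 2566 of all 12714 tested genes, so 6 is no excess. The log2 fold change was positive in 18 members and negative in 22, with a median of -0.03 against -0.01 over all tested genes, and 27 of the 40 lay within 0.25 of 0. All 4 DKO mice lay above all 4 control mice in 2 members (7.63% of all tested genes) and below them in 4 (6.21% of all tested genes). These shares are from few genes and lie near the background. The median standard error of the members' log2 fold changes was 0.15, so differences of that order were not detectable here.

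**Figure D1:**
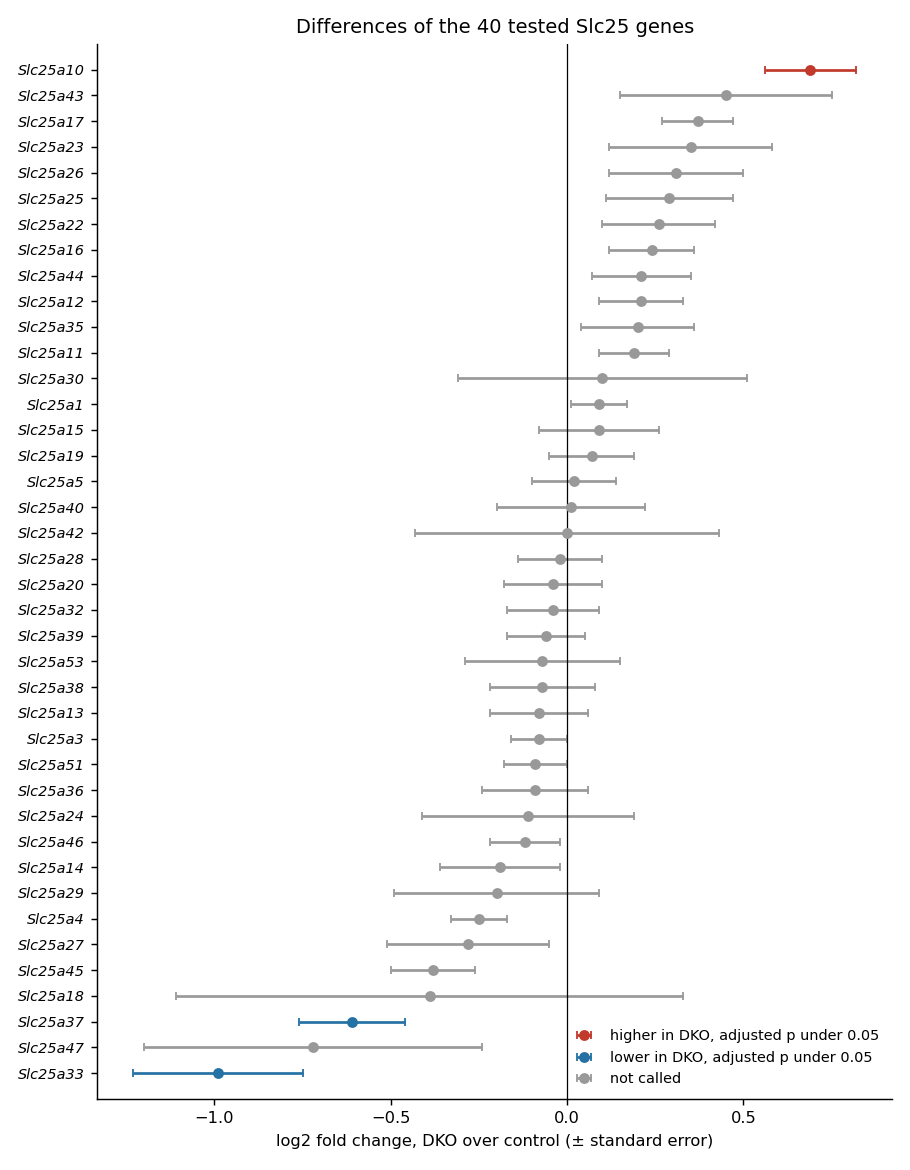
Log2 fold change of each tested *Slc25* gene, DKO over control, with its standard error from edgeR (4 mice in each group), ordered from the highest at the top to the lowest. Red marks the member called higher (*Slc25a10*, 0.69), blue the 2 called lower (*Slc25a33*, -0.99, and *Slc25a37*, -0.61), and grey the 37 not called.

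The carboxylate and acylcarnitine carriers link the citric acid cycle with the cytosol, and 1 of 4 tested was called higher and 0 lower (2.65% and 1.93% of all tested genes). *Slc25a10* encodes the dicarboxylate carrier, which exchanges malate and succinate for phosphate, and lies at chr11:120491837-120501161 on the plus strand (GRCm38). It was measured at 35.8, 35.6, 41.2 and 32.7 CPM in DKO mice 1 to 4, against 20.4, 22.6, 19.0 and 27.8 CPM in control mice 1 to 4. The lowest DKO value exceeded the highest control value, and control mouse 4 was the closest to the DKO mice. The means were 36.3 ± 3.57 CPM in DKO and 22.5 ± 3.86 CPM in control cells (SD, n = 4 each), which is 1.62-fold higher in DKO cells (log2 fold change 0.69, standard error 0.13), with an adjusted p of 0.0175 by edgeR. Leaving out DKO mouse 1 (adjusted p 0.05) or DKO mouse 3 (0.0585) ended the call, and without any other mouse the adjusted p was at most 0.0459. In the 5 libraries with *Xist*, 2 from DKO and 3 from control mice, the log2 fold change was 0.63 with an adjusted p of 0.0683, and with the summed erythroid markers as a covariate it was 0.65 with an adjusted p of 0.18. These markers summed to 22.7 to 54.8 CPM in DKO and 47.9 to 133 CPM in control mice. The covariate thus largely went with genotype, and fits with it cannot tell the 2 apart well.

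The other tested carboxylate carriers were not called by edgeR. *Slc25a11*, the oxoglutarate carrier of the malate-aspartate shuttle, was at 236 ± 32.2 CPM in DKO and 208 ± 13.0 CPM in control cells (SD, n = 4 each), with a log2 fold change of 0.19 and an adjusted p of 0.352. Its highest values, 250 and 275 CPM, were those of DKO mice 3 and 4, the DKO libraries with the most neutrophil marker counts and with almost no *Xist*. The log2 fold change was 0.21 with the neutrophil markers as a covariate, 0.12 with *Xist* as a covariate and 0.05 in the 5 libraries with *Xist*. *Slc25a1*, the citrate carrier that feeds cytosolic acetyl-CoA, was at 206 ± 11.3 CPM in DKO and 194 ± 15 CPM in control cells. *Slc25a20*, the carnitine-acylcarnitine carrier, was at 62.4 ± 9.09 CPM in DKO and 64.2 ± 11.2 CPM in control cells. The 2-oxoadipate carrier gene *Slc25a21* did not pass the filter, and its exons overlap those of *Pax9* on the other strand.

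The mitoferrins bring iron into mitochondria for heme and iron-sulfur clusters, and of the 2 tested, 1 was called lower (1.93% of all tested genes). *Slc25a37* (mitoferrin-1, best known from erythroid cells, where it supplies heme synthesis) lies at chr14:69241851-69285103 on the minus strand, 7.61 Mb from *Mir15a*. It was measured at 14.1, 16.1, 11.9 and 11.7 CPM in DKO mice, against 19.9, 17.6, 19.6 and 24.9 CPM in control mice. The highest DKO value lay below the lowest control value. The means were 13.4 ± 2.08 CPM in DKO and 20.5 ± 3.11 CPM in control cells (SD, n = 4 each), and the log2 fold change was -0.61 (standard error 0.15), with an adjusted p of 0.0435 by edgeR. The call was lost without control mouse 3 (adjusted p 0.0785), control mouse 4 (0.111), DKO mouse 1 (0.0979), DKO mouse 3 (0.128) or DKO mouse 4 (0.1), and in the 5 libraries with *Xist*, where the log2 fold change was -0.45 and the adjusted p 0.181.

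The summed level of the erythroid markers was 22.7, 54.8, 30.6 and 43.7 CPM in DKO mice, against 133, 56.5, 47.9 and 68.9 CPM in control mice. All 8 tested markers had a negative log2 fold change (median -0.61). Of them, 0 were called by edgeR's quasi-likelihood test (1 at an unadjusted p under 0.05), and 1 was called lower by its likelihood ratio test and by DESeq2. The smallest p was that of *Alas2*, at 17.1 ± 6.99 CPM in DKO and 46.4 ± 29.5 CPM in control cells (SD, n = 4 each). Its log2 fold change was -1.44 with an adjusted p of 0.069 by edgeR, the groups overlapped, and control mouse 1 had 89.4 CPM. The 4 hemoglobin genes of the list (*Hba-a1*, *Hba-a2*, *Hbb-bs* and *Hbb-bt*) had 0 reads in every library. With the summed erythroid markers as a covariate, the log2 fold change of *Slc25a37* was -0.53 with an adjusted p of 0.29. In that fit only 57 genes were called higher and 35 lower over the whole table. The covariate nearly separated the genotypes, so the fit cannot tell the part of the markers from that of the genotype. With the summed neutrophil markers as a covariate it was -0.61 with an adjusted p of 0.0474. *Slc25a28* (mitoferrin-2, found in most cell types) was at 15.3 ± 1.27 CPM in DKO and 15.5 ± 1.10 CPM in control cells (SD, n = 4 each; log2 fold change -0.02, adjusted p 0.953).

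Of the carriers of adenine nucleotides, phosphate and pyrimidine nucleotides, 8 of 10 were tested, 0 were called higher and 1 was called lower (2.65% and 1.93% of all tested genes). *Slc25a33* encodes a carrier of pyrimidine nucleotides, which supplies the matrix with precursors for mitochondrial DNA and RNA, and lies at chr4:149744036-149774267 on the minus strand. It was measured at 3.72, 3.17, 4.68 and 4.61 CPM in DKO mice, against 7.36, 11.8, 5.91 and 7.01 CPM in control mice. The groups did not overlap, and control mouse 2 stood above the other control mice. The means were 4.04 ± 0.729 CPM in DKO and 8.01 ± 2.58 CPM in control cells (SD, n = 4 each), and the log2 fold change was -0.99 (standard error 0.24), with an adjusted p of 0.0443 by edgeR. limma-voom did not call it. The call was kept only without control mouse 1 (adjusted p 0.0448) or control mouse 3 (0.0447). The adjusted p was 0.0869 without control mouse 2, 0.0753 without control mouse 4, and 0.117, 0.115, 0.0855 and 0.0703 without DKO mice 1 to 4 in turn. In the 5 libraries with *Xist* the log2 fold change was -1.25 with an adjusted p of 0.0734, and with the erythroid markers as a covariate it was -1.10 with an adjusted p of 0.215.

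The paralog *Slc25a36*, also a pyrimidine nucleotide carrier, was at 13.8 ± 2.64 CPM in DKO and 14.7 ± 1.01 CPM in control cells (SD, n = 4 each), with a log2 fold change of -0.09. *Slc25a4* (ANT1, the form of heart and muscle) was measured at 165, 155, 157 and 177 CPM in DKO mice, against 194, 191, 190 and 200 CPM in control mice, and the groups did not overlap. Its log2 fold change of -0.25 (standard error 0.08) had an adjusted p of 0.0913 by edgeR and 0.0284 by DESeq2. *Slc25a5* (ANT2, the form of dividing cells) was measured at 1239, 1248, 1348 and 1318 CPM in DKO mice, against 1548, 1208, 1017 and 1301 CPM in control mice. The control mice spanned the whole range of the DKO mice, and the log2 fold change was 0.02 (standard error 0.12). *Slc25a5* is X-linked, and its highest value was in control mouse 1, which had almost no *Xist* counts. *Slc25a3*, the phosphate carrier, was at 473 ± 18.9 CPM in DKO and 500.0 ± 12.6 CPM in control cells (SD, n = 4 each; log2 fold change -0.08). The calcium-regulated ATP-Mg/phosphate carriers *Slc25a23* and *Slc25a24* had log2 fold changes of 0.35 and -0.11, and neither was called.

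**Figure D2:**
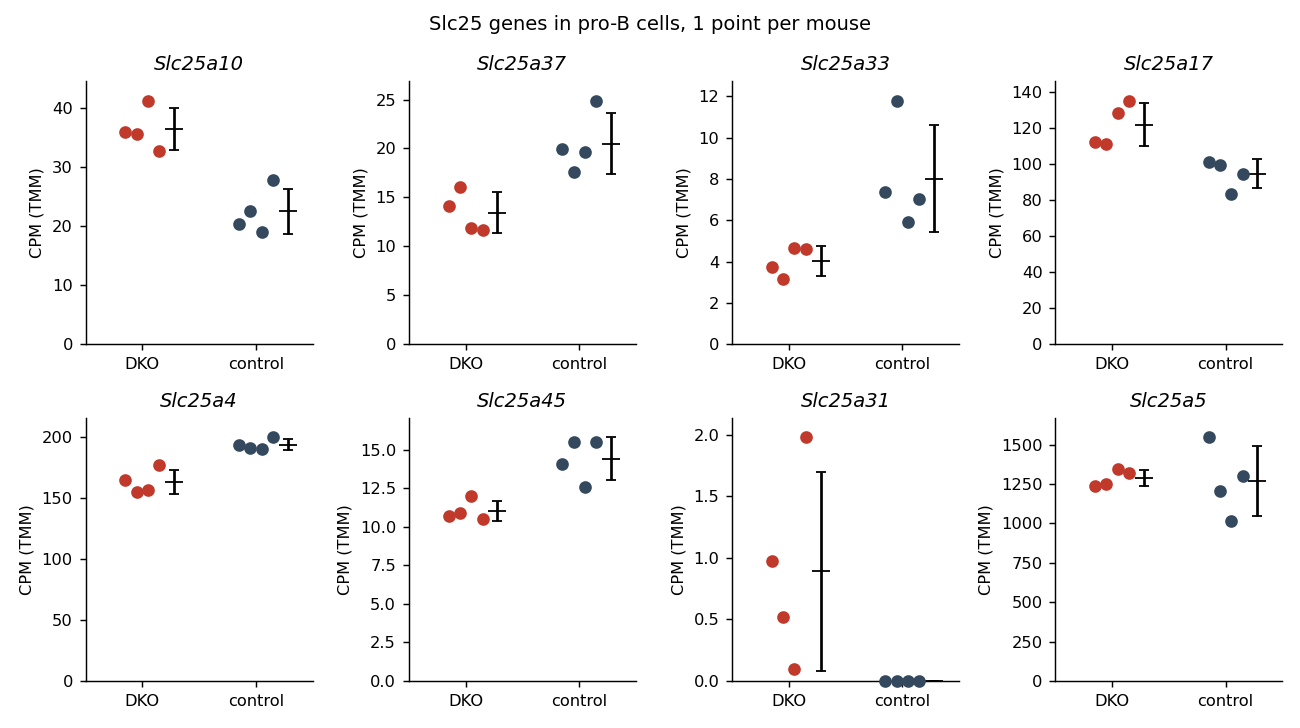
Normalized level (CPM with TMM library sizes, axes from 0) of 8 *Slc25* genes, with 1 point per mouse, DKO on the left and control on the right of each panel, and the mean ± SD (n = 4 each) beside the points. Groups do not overlap in *Slc25a10*, *Slc25a37*, *Slc25a33*, *Slc25a17*, *Slc25a4*, *Slc25a45* and *Slc25a31*, while they overlap in *Slc25a5*.

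Of the 9 carriers of cofactors, vitamins and glutathione, all tested, 0 were called in either direction by edgeR's quasi-likelihood test or limma-voom and 1 was called higher by its likelihood ratio test and by DESeq2 (1 at an unadjusted p under 0.05). The median log2 fold change was 0.01. The smallest p belonged to *Slc25a17*, a peroxisomal member that carries coenzyme A, FAD and NAD. It was measured at 112, 111, 128 and 135 CPM in DKO mice, against 101, 99.1, 83.2 and 94.4 CPM in control mice. The groups did not overlap. The log2 fold change was 0.37 (standard error 0.10) with an adjusted p of 0.0584 by edgeR and 0.0183 by DESeq2. The edgeR value became 0.042 without control mouse 1 and 0.0315 with the neutrophil markers as a covariate, against 0.0792 to 0.167 without any other mouse, 0.179 with the erythroid markers as a covariate and 0.15 in the 5 libraries with *Xist*. *Slc25a16*, linked to coenzyme A in mitochondria, was at 20.8 ± 1.56 CPM in DKO and 17.6 ± 2.03 CPM in control cells (SD, n = 4 each; log2 fold change 0.24, adjusted p 0.281). The glutathione carrier genes *Slc25a39* and *Slc25a40* had log2 fold changes of -0.06 and 0.01.

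Of the 9 amino acid carriers, 8 were tested and 0 were called by edgeR, DESeq2 or limma-voom (0 at an unadjusted p under 0.05), with log2 fold changes between -0.39 and 0.26. *Slc25a12*, an aspartate-glutamate carrier of the malate-aspartate shuttle, was at 63.7 ± 1.29 CPM in DKO and 55.1 ± 9.23 CPM in control cells (SD, n = 4 each; log2 fold change 0.21, adjusted p 0.336). Its paralog *Slc25a13* was at 10.4 ± 0.988 CPM in DKO and 11.0 ± 1.23 CPM in control cells. The glutamate carrier *Slc25a22* had a log2 fold change of 0.26 with an adjusted p of 0.373. The ornithine carrier *Slc25a15* was at 11.6 ± 0.870 CPM in DKO and 10.9 ± 2.57 CPM in control cells. The uncoupling-protein-like carriers *Slc25a14*, *Slc25a27* and *Slc25a30* were not called by any of these tools (0 at an unadjusted p under 0.05), with log2 fold changes between -0.28 and 0.10.

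Among the 9 members of other or unsettled substrate, 6 were tested, 0 were called by edgeR or limma-voom and 1 was called lower by DESeq2 (1 at an unadjusted p under 0.05). *Slc25a45* was measured at 10.7, 10.9, 12.0 and 10.5 CPM in DKO mice, against 14.1, 15.5, 12.6 and 15.5 CPM in control mice, without overlap. Its log2 fold change was -0.38 (standard error 0.12) with an adjusted p of 0.109 by edgeR and 0.046 by DESeq2. The other 5 had log2 fold changes between -0.72 and 0.45, and their groups overlapped.

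Levels of different genes were compared per kilobase of exon. *Slc25a5* was the most abundant member at 995 ± 41.0 CPM per kilobase in DKO and 980 ± 170.0 in control cells (SD, n = 4 each), followed by *Slc25a3* (313 ± 12.5 and 331 ± 8.31) and *Slc25a4* (148 ± 8.81 and 175 ± 4.08). *Slc25a11* (127 ± 17.3 in DKO and 112 ± 6.99 in control cells) and *Slc25a1* (123 ± 6.75 and 115 ± 8.93) came next and did not differ from each other beyond their spread. *Slc25a17* (73.0 ± 7.08 in DKO and 56.6 ± 4.77 in control cells) and *Slc25a39* (63.1 ± 7.24 and 66.0 ± 7.32) changed places: *Slc25a17* lay above *Slc25a39* in 4 of 4 DKO mice and in 0 of 4 control mice, which was not tested. Then *Slc25a20* stood eighth at 35.0 ± 5.10 in DKO and 36.0 ± 6.27 in control cells. *Ucp2*, a relative outside the symbol rule that is described further on, stood above all of them at 6173 ± 185 CPM per kilobase in DKO and 5432 ± 893 in control cells. The tested members ran down to 0.291 CPM per kilobase over all mice in *Slc25a18*. The 5 most abundant genes made up 83.2 ± 0.170% of the summed length-scaled level in DKO and 83.7 ± 1.30% in control cells, and *Slc25a5* alone 48.5 ± 0.812% in DKO and 47.7 ± 3.63% in control cells. In counts, the 47 members summed to 3188 ± 126 CPM in DKO and 3159 ± 266 CPM in control cells (SD, n = 4 each), or 0.315% of all counts in DKO and 0.319% in control cells.

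**Figure D3:**
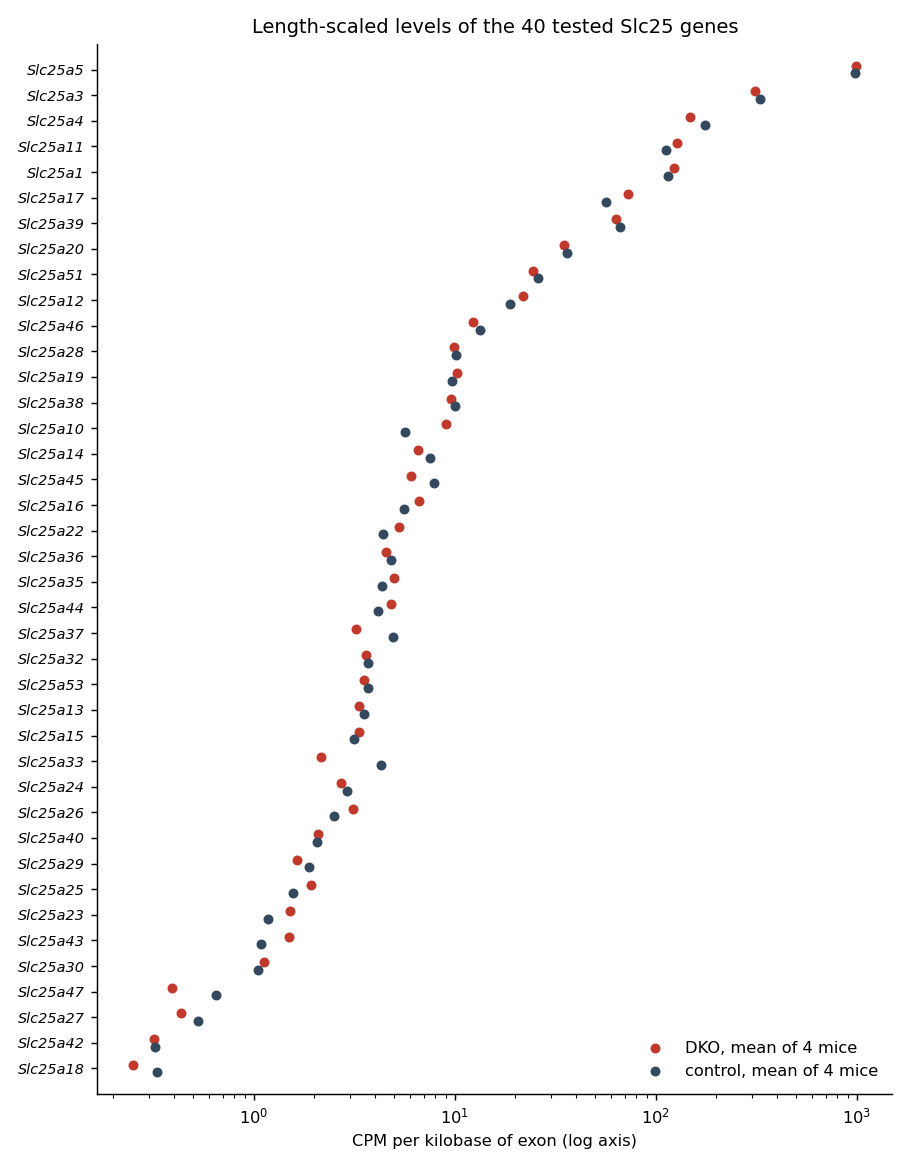
Mean level of each tested *Slc25* gene per kilobase of exon (CPM per kilobase, logarithmic axis), with DKO in red above control in dark blue (means of 4 mice each), ordered by the mean of all mice. *Slc25a5* is at 995 in DKO and 980 in control cells, and *Slc25a18*, the lowest, averages 0.291 over all mice.

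Pairs of carriers with like substrates were compared as the share of 1 gene in the length-scaled sum of both, per mouse, with no test of the shares. *Slc25a37* made up 26.4, 28.2, 23.5 and 20.1% of the mitoferrin pair in DKO mice, against 33.4, 30.3, 32.3 and 35.0% in control mice. These groups did not overlap, and *Slc25a28* was the major mitoferrin in every library. *Slc25a33* made up 32.5 ± 5.79% of its pair with *Slc25a36* in DKO and 46.2 ± 7.19% in control cells (SD, n = 4 each), and here DKO mouse 4 (40.9%) lay above control mouse 3 (38.7%). *Slc25a4* made up 12.9 ± 0.716% of its pair with *Slc25a5* in DKO and 15.4 ± 2.12% in control cells, with overlapping groups. *Slc25a12* made up 86.8 ± 1.01% of its pair with *Slc25a13* in DKO and 84.0 ± 2.81% in control cells. The share of *Slc25a24* with *Slc25a23* was 64.4 ± 8.48% in DKO and 68.4 ± 11.6% in control cells, and that of *Slc25a39* with *Slc25a40* was 96.8 ± 1.01% in DKO and 97.0 ± 0.332% in control cells. The glutamate carrier *Slc25a22* made up 95.3 ± 5.28% of its pair with *Slc25a18* in DKO and 93.3 ± 2.51% in control cells. The ornithine carrier *Slc25a15* made up 98.9 ± 0.871% of its pair with *Slc25a2* in DKO and 97.6 ± 0.866% in control cells.

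**Figure D4:**
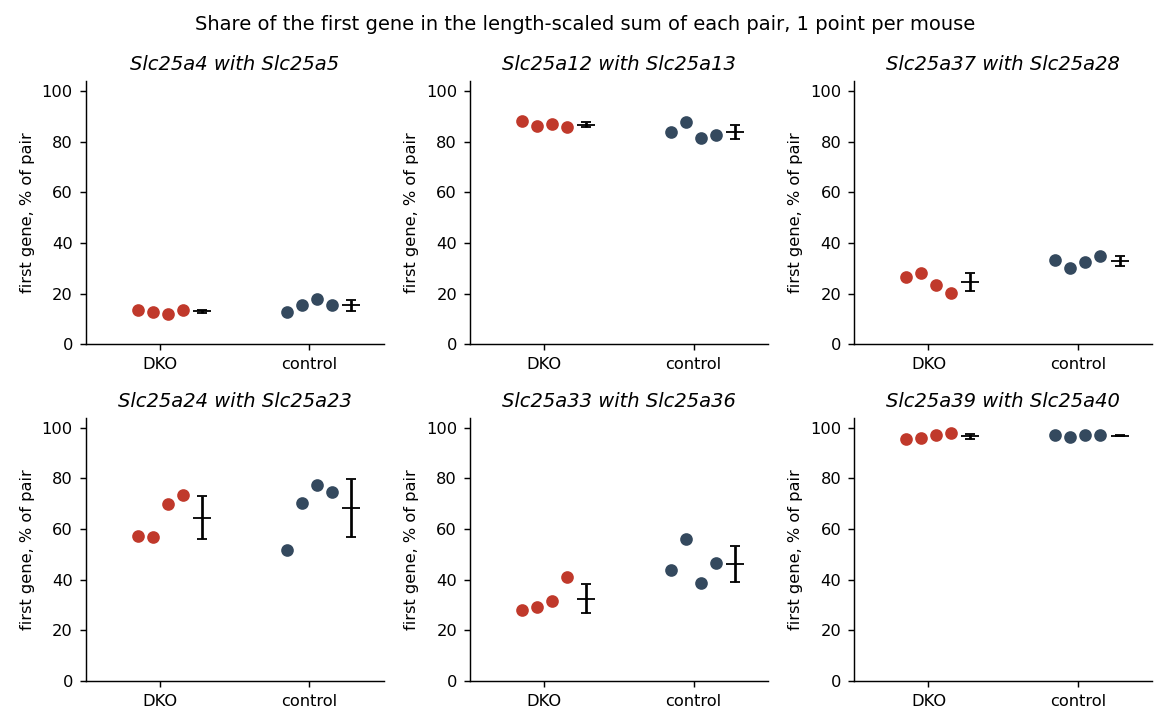
Share of the first-named gene in the length-scaled sum of each of 6 carrier pairs (percent, axis from 0 to just over 100), with 1 point per mouse, DKO on the left and control on the right, and mean ± SD (n = 4 each). The mitoferrin pair (*Slc25a37* with *Slc25a28*) is the panel without overlap, at 24.5 ± 3.54% in DKO and 32.8 ± 1.95% in control cells.

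The members that did not pass the filter were *Slc25a2*, *Slc25a21*, *Slc25a31*, *Slc25a34*, *Slc25a41*, *Slc25a48* and *Slc25a54*. *Slc25a48* had 0 reads in every library. *Slc25a31* was singled out after its values were seen. It encodes ANT4, the ADP/ATP carrier of male germ cells, and lies at chr3:40708871-40726094 on the plus strand. It had 42, 20, 4 and 74 counts in DKO mice 1 to 4 (0.893 ± 0.810 CPM; SD, n = 4), against 0 counts in each control mouse. A count of 0 was taken to allow up to 3 counts per library, or 0.0747 CPM on average. The DKO mean was 12 times this floor, and 7.09 times without DKO mouse 4. These ratios take the DKO mean as exact, so they are not lower bounds of the difference. DKO mice differed widely, and DKO mouse 3 was close to that floor. Counts from 1 to 10 were even in 78.4% of cases over the whole table and in 88.5% of the 26 such values of *Slc25* genes. The floor takes each count as independent, which such evenness puts in doubt, and it covers counting error only.

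The genes around the carriers were described from lists of 52 genes, of which 50 were tested, and 1 was called higher and 2 lower, against 2.65% and 1.93% of all tested genes, so these counts lie near the background. Carrier family genes under other symbols had 0 calls among 3 tested by edgeR, DESeq2 or limma-voom, and 0 at an unadjusted p under 0.05. *Ucp2*, an uncoupling-protein family member abundant in immune cells, was at 9729 ± 291 CPM in DKO and 8561 ± 1408 CPM in control cells (SD, n = 4 each; log2 fold change 0.18, adjusted p 0.417), and *Mtch2*, an outer-membrane member, had a log2 fold change of 0.21 with an adjusted p of 0.378. The carrier import machinery had 0 calls among 16 tested genes by the same tools, and 0 at an unadjusted p under 0.05, with 4 positive and 12 negative log2 fold changes. Its smallest p-values were those of *Timm9*, a chaperone of the intermembrane space (log2 fold change -0.36, adjusted p 0.286), and *Tomm5*, a subunit of the outer-membrane pore (-0.29, adjusted p 0.307).

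Of 20 other transporters of the mitochondrial membranes, 1 was called higher and 0 lower (2.65% and 1.93% of all tested genes). *Sfxn3*, of the sideroflexins that carry serine, was measured at 31.5, 31.3, 30.7 and 33.6 CPM in DKO mice, against 25.1, 20.4, 16.8 and 20.7 CPM in control mice. The groups did not overlap, and the log2 fold change was 0.61 (standard error 0.12) with an adjusted p of 0.021 by edgeR. The adjusted p was 0.0605 without control mouse 4 and 0.0626, 0.0568, 0.0611 and 0.0505 without DKO mice 1 to 4 in turn. *Sfxn4* had a log2 fold change of 0.41 with an adjusted p of 0.152.

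Of 11 regulators of mitochondrial biogenesis, 0 were called higher and 2 lower by edgeR's quasi-likelihood test, against 2.65% and 1.93% of all tested genes. The list is small and its share was not tested. The likelihood ratio test of edgeR called 1 higher and 2 lower, and so did DESeq2. At an unadjusted p under 0.05 in the quasi-likelihood test there were 3 of 11, against 2566 of all 12714 tested genes. *Ppargc1a* encodes PGC-1alpha, a coactivator of nuclear genes for mitochondrial proteins. It was measured at 9.64, 11.9, 7.94 and 8.25 CPM in DKO mice, against 15, 20.3, 18.2 and 19.6 CPM in control mice. The groups did not overlap, with a log2 fold change of -0.96 (standard error 0.16) and an adjusted p of 0.00981 by edgeR. This call held without any single mouse (adjusted p up to 0.035) and in the 5 libraries with *Xist* (0.0256), and was lost with the erythroid markers as a covariate (log2 fold change -0.98, adjusted p 0.0984). *Myc*, a growth regulator that raises mitochondrial gene expression, was measured at 44.1, 52.4, 30.9 and 33.7 CPM in DKO mice, against 75.6, 77.0, 51.7 and 66.6 CPM in control mice. DKO mouse 2 lay just above control mouse 3, so the groups overlapped, and the log2 fold change was -0.75 (standard error 0.18) with an adjusted p of 0.0407 by edgeR. The call was kept only without control mouse 3 (0.0336) or DKO mouse 2 (0.0324). The adjusted p was 0.0572, 0.0881 and 0.0908 without control mice 1, 2 and 4, and 0.0837, 0.118 and 0.0973 without DKO mice 1, 3 and 4. In the 5 libraries with *Xist* the log2 fold change of *Myc* was -0.43 with an adjusted p of 0.197, and with the erythroid markers as a covariate it was -0.52 with an adjusted p of 0.341.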

How the data were processed

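RNA of sorted pro-B cells was amplified by SMART-seq and sequenced, 1 library for each mouse. The deposited values are raw counts, and the submitters' processing notes name Trimmomatic, STAR, featureCounts and GRCm39. Their versions and the strandedness of counting were not given in the sources used here. All 47 members overlap their GRCm38 position in GENCODE M21, with an end within 10 bases in 35, so GRCm38 was used. Counts of 8 columns were normalized by TMM and filtered (filterByExpr, minimum count 10, total 15). The quasi-likelihood test of edgeR 4.0.16 (R 4.3.3; genotype as the only term, prior count 0.125, Benjamini-Hochberg threshold 0.05) gave the fold changes. It was tested on simulated data. Alternatives used DESeq2 1.42.0, the likelihood ratio test, voom of limma 3.58.1, other normalizations and filters, covariates, a replicate block and each mouse left out. All replicate pairs differed by more than sampling noise.

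The text names the called members, the 6 others with the smallest p, the 8 most abundant, both genes of each pair, and in each related list the called genes and, where fewer than 2 were called, those with the smallest p up to 2. The uncoupling-protein-like carriers and the members that did not pass the filter are named as well. *Slc25a31*, *Pprc1*, *Tomm20* and the markers given singly were added after their values were seen. The members and lists were chosen with earlier results of these data known. Protein sequences were not analysed here, nor were some listed marker genes.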

Additional observations from a re-analysis of the deposited data

Results flagged for a closer look

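In 5 of 66 groups of 4 mice, 1 mouse lay far from the other 3 by Dixon's criterion for 4 values, which chance meets in about 1 of 20 groups. *Slc25a16* was at 18.5 CPM in DKO mouse 2, against 21.4 to 21.9 CPM in the other DKO mice. *Slc25a20* was at 80.9 CPM in control mouse 3, against 57.6 to 59.7 CPM in the other control mice, and *Slc25a36* at 13.2 CPM in control mouse 4, against 15.1 to 15.3 CPM. The share of *Slc25a22* in its pair with *Slc25a18* was 87.5% in DKO mouse 3, against 96.9 to 98.4% in the other DKO mice, and that of *Slc25a39* with *Slc25a40* was 96.5% in control mouse 2, against 97.1 to 97.2%.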

How the results depend on the processing

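Calls near the threshold moved with the test. For *Slc25* genes, 1 was higher, against 2 with the likelihood ratio test, DESeq2, the *Xist* covariate or the neutrophil covariate, where *Slc25a17* was added. No filter also gave 2, where *Slc25a31* was added, and the 5 libraries with *Xist* gave 1, which was *Slc25a31*. That gene entered 7 of 24 fits through its DKO counts alone and was called in 5. The erythroid covariate gave 0 and leaving out a mouse 0 to 3. For those lower (2), DESeq2 called 4, limma-voom 1, the erythroid covariate and the 5 libraries with *Xist* 0 each, and leaving out a mouse gave 0 to 2. Over all genes, 337 higher and 245 lower became 519 and 461 (likelihood ratio test), 674 and 568 (DESeq2), 559 and 506 (*Xist* covariate), 57 and 35 (erythroid covariate), 322 and 252 (5 libraries with *Xist*), and 142 to 493 and 84 to 398 with a mouse left out. In the related lists, 1 higher became 2 with the likelihood ratio test, DESeq2 or the *Xist* covariate and 0 to 1 with a mouse left out, and 2 lower became 0 (erythroid covariate), 1 (5 libraries with *Xist*) and 1 to 2.

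With the replicate block, 0 *Slc25* genes were higher and 0 lower, 94 and 54 of all genes, and 0 of the related lists were higher. Same-numbered mice did not deviate together (r from -0.255 to 0.0921), and no mouse correlated best with its own number.

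Log2 fold changes of genes that were not called changed sign: *Slc25a5* (library size -0.00, *Xist* covariate -0.03, a mouse left out -0.07 to 0.13), *Slc25a24* (limma-voom 0.01, block 0.01, *Xist* 0.09, -0.36 to 0.16), *Slc25a40* (limma-voom -0.01, upper quartile -0.01, library size -0.02, 1 CPM filter -0.00, block -0.02, neutrophil covariate -0.03, -0.09 to 0.16), *Slc25a20* (5 libraries 0.02, -0.13 to 0.09), *Slc25a28* (erythroid covariate 0.02, -0.08 to 0.03), *Slc25a39* (erythroid 0.13, -0.13 to 0.01), *Timm9* and *Tomm5* (erythroid 0.02 and 0.05), and, with a mouse left out, *Slc25a15* (-0.02 to 0.25), *Slc25a18* (-1.44 to 0.01) and *Slc25a36* (-0.19 to 0.01). The cause was not tested. Of 712 values over 31 genes, 633 kept direction and side of the threshold, 38 fell short of it, 7 passed it and 34 changed sign. The covariates of marker genes and the fit to 5 libraries were chosen after seeing the data. Members below 1 CPM rest on few counts, and for the others the spread between mice limits the comparison.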

Other observations

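The genes of the carrier import machinery, which brings the carriers into mitochondria, were high in 1 library. Control mouse 1 had the highest level of all 8 libraries in 11 of 16 import genes (68.8%), against 8 of 40 tested *Slc25* genes and 19.0% of all tested genes. *Tomm20*, the receptor of the outer membrane, was at 169, 167, 187 and 176 CPM in DKO mice, against 325, 175, 161 and 199 CPM in control mice. *Tomm5* was at 173, 172, 192 and 184 CPM in DKO mice, against 302, 188, 179 and 211 CPM in control mice. Without control mouse 1 the log2 fold change of *Tomm5* was -0.10 and that of *Timm9* -0.16.

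*Pprc1*, a relative of *Ppargc1a*, was measured at 12.6, 14.3, 11.9 and 9.73 CPM in DKO mice, against 6.19, 7.06, 8.20 and 9.92 CPM in control mice. The groups overlapped by DKO mouse 4 and control mouse 4, and the log2 fold change was 0.63 with an adjusted p of 0.0785 by edgeR's quasi-likelihood test, 0.0435 by its likelihood ratio test and 0.0189 by DESeq2, in the direction opposite to *Ppargc1a*.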
